A study of Mus musculus with 5 samples.

Results

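The genes described here are 9 genes of the TGF-β pathway among 22350 protein-coding genes of the mouse annotation. They comprised the ligand gene Tgfb1, the receptor genes Tgfbr1 and Tgfbr2, the signal-carrying SMAD genes Smad2, Smad3 and Smad4, the inhibitory SMAD gene Smad7, and the corepressor genes Ski and Skil. A locus was the gene body with 30 kb added on each side, and a called region belonged to it when it overlapped the locus by at least 1 bp. By this rule the 9 loci held 27 of 9135 Runx3-bound regions and 57 of 18992 H3K4me1-marked regions. The genes had been chosen by the called regions of both lists at their loci, so the numbers of regions at these loci are a description and carry no test.

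TGF-β is a cytokine that restrains activation and cytotoxic differentiation of T cells and supports CD103-positive tissue residence. The ligand brings the type II receptor Tgfbr2 together with the type I receptor Tgfbr1, whose kinase phosphorylates Smad2 and Smad3. These receptor-regulated SMADs join the common partner Smad4, enter the nucleus and bind DNA together with other factors, RUNX proteins among them. Smad7 blocks the receptor and is itself a target of the pathway, while Ski and its relative Skil (SnoN) hold SMAD complexes in a repressed state. H3K4me1, the monomethylated form of lysine 4 of histone H3, is abundant at enhancers, and Runx3 is the RUNX factor characteristic of cytotoxic lymphocytes.

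ChIP-seq was performed on CD8-TC, the CD8+ T cells, which anti-CD8 magnetic beads had drawn from spleens of mice of the ICR strain. The cells had been TCR-activated for 2 days with anti-CD3e and anti-CD28 and then kept for 4 days in 100 u/ml IL-2, and all 5 libraries shared this treatment. The libraries were 2 with anti-Runx3 antibody, 2 with non-immune serum (NIS) as control and 1 with anti-H3K4me1 antibody. Regions were called once per antibody on joined reads against joined NIS reads, so a called region has no replicate error, no height and no depth that was analysed here, and there is no second condition to compare. The intervals below are 95% Wilson intervals and cover counting error alone. Of 7 genes that mark T cells, CD8+ T cells or cytotoxic cells, 7 had an H3K4me1-marked region in or within 5 kb of the gene. A Runx3-bound region was called there for 6 of them, Cd3e being the exception. Among the 7, Cd3d, Cd3e and Cd3g mark T cells of all kinds. None of 3 erythroid or stromal genes had a region of either list. The share of all genes with a region within 5 kb was not computed, so nothing is read from these counts. Regions of both kinds were also called at Cd79a, Pax5 and Itgam, which are B cell or myeloid markers, while Ms4a1, Csf1r, Lyz2 and Cd14 had neither. The part of other cells in these calls was not tested.

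The centres of 8 Runx3-bound regions are printed as 200 bp of the mm9 plus strand, 5′ to 3′, to show how differently the receptor, ligand, Smad3 and Ski loci carry the RUNX motif. Capitals mark RUNX motifs, that is TGTGGT or TGTGGC or TGCGGT or TGCGGC on either strand, so that a motif on the minus strand begins with ACC or GCC. In the Tgfbr2 region at -6.46 kb from the gene start, which held no RUNX motif, capitals mark the AP-1 motif (TGACTCA or TGAGTCA on either strand). The Tgfbr1 window has no capitals, because neither motif lay in it and the nearest RUNX motif was 113 bp from the centre. Among regions whose central 200 bp overlapped no untranslated sequence, those shown are the one with the most RUNX motifs in its centre, ties going to the one nearer the gene start, and the one nearest the gene start. The 2 Smad3 regions with RUNX motifs at most 25 bp apart were added after their values had been seen.
Tgfb1 +2.68 kb, chr7:26474597-26474796: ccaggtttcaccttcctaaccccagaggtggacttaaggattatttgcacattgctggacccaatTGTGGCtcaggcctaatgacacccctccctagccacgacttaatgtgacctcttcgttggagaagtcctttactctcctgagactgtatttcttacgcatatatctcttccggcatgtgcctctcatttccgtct
Tgfbr1 -0.132 kb, chr4:47365862-47366061: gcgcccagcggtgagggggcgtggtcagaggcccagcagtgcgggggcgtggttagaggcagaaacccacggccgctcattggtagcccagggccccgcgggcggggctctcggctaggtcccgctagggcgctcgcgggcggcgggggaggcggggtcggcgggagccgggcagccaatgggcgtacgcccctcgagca
Tgfbr2 -13.8 kb, chr9:116098078-116098277: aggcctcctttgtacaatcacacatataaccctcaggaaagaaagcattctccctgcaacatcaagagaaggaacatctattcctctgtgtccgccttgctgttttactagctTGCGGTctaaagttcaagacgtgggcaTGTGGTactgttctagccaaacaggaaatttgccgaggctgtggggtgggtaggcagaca
Tgfbr2 -6.46 kb, chr9:116090740-116090939: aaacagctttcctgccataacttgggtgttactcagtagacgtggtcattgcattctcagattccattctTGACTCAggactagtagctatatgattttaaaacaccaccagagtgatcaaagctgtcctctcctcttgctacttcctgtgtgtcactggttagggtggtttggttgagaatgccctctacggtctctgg
Smad3 -1.36 kb, chr9:63607059-63607258: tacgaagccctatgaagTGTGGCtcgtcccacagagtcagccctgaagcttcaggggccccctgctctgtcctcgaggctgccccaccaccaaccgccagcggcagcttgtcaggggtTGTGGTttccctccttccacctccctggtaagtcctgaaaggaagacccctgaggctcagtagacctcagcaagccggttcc
Smad3 +25.2 kb, chr9:63580532-63580731: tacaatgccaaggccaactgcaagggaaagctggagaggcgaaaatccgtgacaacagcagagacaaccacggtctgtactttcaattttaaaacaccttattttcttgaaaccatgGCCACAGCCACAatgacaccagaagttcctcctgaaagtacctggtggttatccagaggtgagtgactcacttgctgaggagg
Smad3 +20.2 kb, chr9:63585474-63585673: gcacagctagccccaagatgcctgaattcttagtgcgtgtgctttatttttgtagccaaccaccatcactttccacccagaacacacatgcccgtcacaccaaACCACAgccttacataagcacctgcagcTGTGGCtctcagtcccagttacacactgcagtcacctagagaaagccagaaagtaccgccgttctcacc
Ski -0.935 kb, chr4:154597536-154597735: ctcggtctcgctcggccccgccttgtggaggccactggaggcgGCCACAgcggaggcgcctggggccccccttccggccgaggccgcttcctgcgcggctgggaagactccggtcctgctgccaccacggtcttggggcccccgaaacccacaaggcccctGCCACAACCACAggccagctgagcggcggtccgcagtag

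The 9 loci fell into 2 kinds, those with many regions of both lists and those with 1 or no Runx3-bound region. Smad3 held 8 Runx3-bound and 16 H3K4me1-marked regions, Ski 6 and 10, Tgfbr2 4 and 11, Smad7 3 and 12, and Tgfb1 3 and 5. Smad2 and Smad4 each held 1 of either kind, Tgfbr1 held 1 Runx3-bound and 0 H3K4me1-marked regions, and Skil held 0 and 1. Thus 8 of the 9 loci had a Runx3-bound region, against 39.6% of all protein-coding genes, and 8 of 9 had an H3K4me1-marked region, against 44.6%. Both shares used the values by which the genes were selected, so nothing is read from them. A Runx3-bound region that overlapped H3K4me1 was called at 4 loci (Tgfbr2, Smad3, Smad7 and Ski), against 21.5% of all genes. The selection bears on this share as well, so nothing is read from it either. Long loci meet more regions, and the member loci were long. Among the 5588 genes with the longest loci, from 102 kb upward, 46.2% had a Runx3-bound region and 51.3% an H3K4me1-marked region, and among the next 5587, from 75.4 to 102 kb, the shares were 44.8% and 51.8%.

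**Figure D1:**
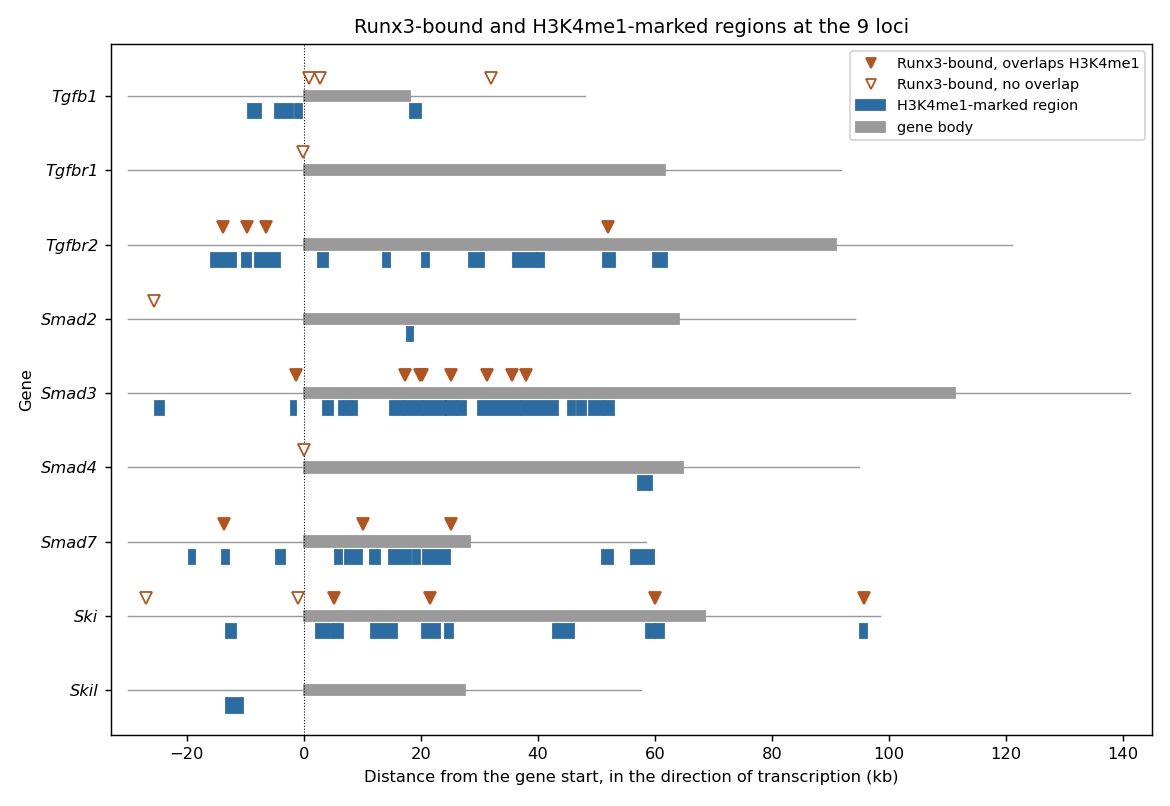
Map of the 9 loci, with distance from the gene start in kb in the direction of transcription on the x axis and the genes on the y axis. Triangles are Runx3-bound regions, filled where they overlap an H3K4me1-marked region (blue bars), grey bars are gene bodies and thin lines the 30 kb on each side; the 8 Runx3-bound regions of Smad3 are all filled, while those of Tgfb1, Tgfbr1, Smad2 and Smad4 are all open.

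Per 100 kb of locus, Smad3 and Ski each had 4.67 Runx3-bound regions, Tgfb1 had 3.84, Smad7 had 3.39 and Tgfbr2 had 2.65, while Tgfbr1, Smad2 and Smad4 had 0.822, 0.805 and 0.801 and Skil had 0. The mean over all protein-coding genes was 0.805 and the median 0. Without regard to locus length, the number at Smad3 was reached by 45 of the 22350 genes (0.201%) and the number at Ski by 0.747%. That at Tgfbr2 was reached by 3.49% and that at Smad7 and Tgfb1 by 7.92%. Per 100 kb, the value of Smad3 was reached by 2.27% of genes and that of Ski by 2.29%. The value of Tgfb1 was reached by 4.13%, that of Smad7 by 4.89% and that of Tgfbr2 by 10.4%. H3K4me1-marked regions covered 26.7% of the Smad7 locus, a cover reached by 0.635% of genes, and 23.3% of the Smad3 locus, reached by 1.01%. The cover was 18% at Ski, 17.7% at Tgfbr2, 10.4% at Tgfb1, 3.41% at Skil, 1.93% at Smad4, 0.783% at Smad2 and 0 at Tgfbr1, and its mean over all genes was 2.61%. Among the SMAD genes, Smad3 and Smad7 lay above both means. Smad2 and Smad4 lay close to the mean for Runx3-bound regions and below the mean for H3K4me1 cover. The genes were chosen by the called regions at their loci, so nothing is read from these ranks.

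Tgfb1 (chr7:26472021-26490096, plus strand) encodes the ligand. Its 3 Runx3-bound regions lay outside the mark. The region at chr7:26472152-26473582, 1431 bp wide, was the widest at any of the 9 loci and covered coding and untranslated sequence of the gene. Its centre was 0.846 kb after the gene start and its edge 505 bp from the nearest H3K4me1-marked region, which lay upstream. The region at chr7:26474189-26475205, centred at 2.68 kb in intron 1, overlapped a coding exon of an alternative transcript and lay 0.751 kb from the start of a shorter transcript. Of its 2 RUNX motifs, the one in the central 200 bp is capitalised in the Tgfb1 sequence above, at 32 bp from the centre. The remaining region, at 32 kb and downstream of the gene, was 0.0670 kb from the start of its neighbour Ccdc97. The 5 H3K4me1-marked regions held 0 of the Runx3-bound regions, and 3 of them formed a block of 4.50 kb that ended shortly before the Tgfb1 start. Another 5 gene starts lay in this locus, those of B9d2, Bckdha, Ccdc97, Exosc5 and Tmem91, so its regions cannot be assigned to Tgfb1 by position.

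Tgfbr1 (chr4:47366094-47427803, plus strand) encodes the type I receptor kinase. Its single Runx3-bound region, chr4:47365642-47366283, was centred 0.132 kb before the gene start, had a GC content of 72.6% and held 3 RUNX motifs, 2 TGTGGC and 1 TGCGGC. None of these lay in the central 200 bp, as the Tgfbr1 sequence above shows. No H3K4me1-marked region was called in this locus, and the nearest one lay 30.3 kb from the gene body, just outside the limit of 30 kb. The nearest further Runx3-bound region lay 32.7 kb from the gene body. With 50 kb on each side the locus held 3 Runx3-bound and 6 H3K4me1-marked regions.

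Tgfbr2 (chr9:115993415-116084383, minus strand) encodes the type II receptor, which binds the ligand. Its 4 Runx3-bound regions were each wholly covered by H3K4me1, and 3 of them stood upstream of the gene at 6.46, 9.81 and 13.8 kb. The remaining one, chr9:116032161-116032635, lay 52.0 kb into the gene in intron 4. No Runx3-bound region was called at the Tgfbr2 start, in contrast to Tgfbr1, and no other protein-coding gene started in this locus. Of the 4 regions, 2 differed in motif content in a way the printed sequences show. The region at -13.8 kb carried TGCGGT and TGTGGT 21 bp apart near its centre, and the region at -6.46 kb carried no RUNX motif over its 499 bp but an AP-1 motif and 6 ETS motifs. The upstream H3K4me1-marked regions at -6.25 and -13.8 kb were 4395 and 4399 bp wide, and the remaining 7 regions without Runx3 were spread over the gene body from 3.27 to 60.8 kb.

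Smad2 (chr18:76401234-76465385, plus strand) encodes a receptor-regulated SMAD. Its single Runx3-bound region, chr18:76375358-76375916, lay 25.6 kb upstream of the gene start. The nearest other Runx3-bound region was 653 kb away and the nearest H3K4me1-marked region 43.0 kb away. It held 3 TGTGGT motifs, all in the central 200 bp and 2 of them side by side, and an AP-1 motif. The only H3K4me1-marked region of the locus, 972 bp wide, lay in the gene at 18.2 kb and held no Runx3-bound region.

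Smad3 (chr9:63494574-63605801, minus strand) encodes the other receptor-regulated SMAD and carried the most regions of both lists among the 9 genes. Of its 8 Runx3-bound regions, 7 lay in intron 1 of the longest coding transcript, between 17.3 and 37.9 kb from the gene start. Those at 31.2, 35.5 and 37.9 kb also lay 14.8, 10.5 and 8.09 kb upstream of an alternative coding transcript start. The remaining region, chr9:63606912-63607406, lay 1.36 kb upstream of the gene start with 58.2% of its length marked. The nearest protein-coding gene start to each of the 8 was that of Smad3, and no other protein-coding gene started in the locus. The widest, chr9:63588096-63588910, was 815 bp wide, and the one with the most RUNX motifs, chr9:63574261-63574844, held 5. The neighbouring regions at 19.8 and 20.2 kb had centres 445 bp apart and were separate calls.

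The H3K4me1-marked regions of Smad3 intron 1 stood nearly edge to edge. Joined over gaps of at most 1 kb, they formed a block of 13.6 kb made of 2 called regions with 3 Runx3-bound regions, and a block of 13 kb made of 5 called regions with 4 Runx3-bound regions. A further block of 7.74 kb, made of 4 called regions, held 0 Runx3-bound regions. Its called region at 45.8 kb overlapped coding and untranslated sequence of Smad3. The marked sequence filled 99.0%, 96.8% and 88.5% of these blocks. The regions of 7166 and 6277 bp in the first of these blocks were the widest H3K4me1-marked regions at the 9 loci. The Smad3 region at 25.2 kb is printed above with its RUNX motifs directly side by side, and the region at 20.2 kb with motifs on opposite strands at 22 bp from each other. The Runx3-bound region farthest into the intron, at 37.9 kb, held no RUNX motif.

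Smad4 (chr18:73798663-73863434, minus strand) encodes the common partner of the receptor-regulated SMADs. Its single Runx3-bound region, chr18:73863115-73863746, was centred 4 bp from the gene start, overlapped untranslated sequence of the gene and had the highest GC content of the 27 regions, 75.9%. Its ratio of observed to expected CpG, 0.999, was also the highest. It held 3 RUNX motifs, 2 TGCGGT and 1 TGTGGT. The single H3K4me1-marked region, 2407 bp wide, lay 58.3 kb into the gene, 56.8 kb from the Runx3-bound region.

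Smad7 (chr18:75527183-75555589, plus strand) encodes the inhibitory SMAD and had the highest H3K4me1 cover of the 9 loci. Of its 12 H3K4me1-marked regions 7 overlapped the gene body, and 4 of them formed a block of 10.5 kb that was 91.4% marked. The 3 Runx3-bound regions all touched the mark but to unequal extents. The region 13.7 kb upstream, chr18:75513142-75513774, was marked over 93.8% of its length. The regions at 10.1 and 25.1 kb in intron 3, chr18:75537121-75537460 and chr18:75551973-75552580, were marked over 18.5% and 27.6% and had their centres outside the mark, at the downstream ends of marked regions of 3051 and 4681 bp. No Runx3-bound region was called at the Smad7 start, where an H3K4me1-marked region lay 4.02 kb upstream.

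Ski (chr4:154528184-154596701, minus strand) encodes a corepressor of SMAD complexes and had 6 Runx3-bound regions. The region at the gene start, chr4:154597297-154597975, was centred 0.935 kb upstream, lay 2.58 kb from the nearest H3K4me1-marked region and had a GC content of 66.4%. It held 6 RUNX motifs, 3 of which lie in the printed Ski sequence, 2 of them side by side. In intron 1, regions at 5.13, 21.6 and 60.0 kb were marked over 79.2%, 100% and 97.5% of their length, and the region at 21.6 kb, 915 bp wide, held 6 RUNX motifs. A further region at 95.6 kb, downstream of the gene, overlapped Morn1, whose start was the nearest protein-coding start at 40.4 kb. The region at -27.0 kb lay 0.218 kb from the start of 2610002J02Rik and outside the mark. These last 2 regions are therefore nearer to the starts of neighbours than to that of Ski.

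Skil (chr3:30993980-31021499, plus strand) encodes the related corepressor SnoN and was the locus without a Runx3-bound region. The nearest one was 33.3 kb from the gene body, just past the limit, against 26.7 kb for the farthest region inside it at Ski and 25.3 kb at Smad2. With 50 kb on each side Skil held 2 Runx3-bound regions. Its 1 H3K4me1-marked region, 2982 bp wide, lay 11.9 kb upstream and held 6 RUNX motifs. The start of Cldn11 also lay in this locus. The size of the window therefore decides the 0 at Skil.

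For 24 of the 27 Runx3-bound regions the nearest protein-coding gene start was that of the member, the exceptions being the regions at Ccdc97, Morn1 and 2610002J02Rik. A region centred less than 1 kb from the gene start was called at 4 of the 9 genes, Tgfb1, Tgfbr1, Smad4 and Ski. The share of all protein-coding genes was 8.84%, but the 9 genes were chosen by the called regions at their loci. Nothing is therefore read from this contrast. With the starts of all transcripts, 7 of the 27 regions (25.9%, 13.2 to 44.7) lay less than 1 kb from a start, against 26.3% of all Runx3-bound regions. Another centre within 10 kb was found for 14 of 27 regions (51.9%, 34.0 to 69.3), against 33.5% of all. The selection of the genes bears directly on this share of neighbours as well, so nothing is read from it. Of these 14, Smad3 gave 7, Tgfbr2 gave 3, and Tgfb1 and Ski gave 2 each, so the regions counted share few loci.

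Of the 27 regions, 19 (70.4%, 51.5 to 84.1) overlapped H3K4me1, against 57.3% of all Runx3-bound regions. The centre of 15 lay in the mark (55.6%, 37.3 to 72.4), against 46.3% of all, and 11 were wholly covered (40.7%, 24.5 to 59.3), against 34.7%. The 8 regions of Smad3 carry much of this, and without that locus 11 of 19 (57.9%) overlapped the mark. Seen from the mark, 20 of 57 H3K4me1-marked regions (35.1%, 24 to 48.1) overlapped a Runx3-bound region, against 29.2% of all. In each of these comparisons the share over all regions lay inside the interval of the member loci.

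At these loci the marked and unmarked Runx3-bound regions differed in position and base composition. None of the 19 marked regions was centred less than 1 kb from a transcript start, 16 lay more than 5 kb away, 13 were intronic and 5 upstream of the member gene. Of the 8 unmarked regions 7 lay less than 1 kb from a transcript start, the Smad2 region being the exception. Exons of Tgfb1, Tgfbr1 or Smad4 were overlapped by 4 of the 8. The same positions were not counted over all marked and all unmarked Runx3-bound regions, so this contrast is not claimed as particular to these loci. The GC content of the marked regions ranged from 45.2% to 59.0% with a median of 51.1%. That of the unmarked ones ranged from 51.9% to 75.9% with a median of 60.0%. Over all Runx3-bound regions the GC medians were 47.9% with the mark and 52.5% without it. The ranges of the CpG ratio did not overlap, at 0.103 to 0.424 with a median of 0.236 for the marked regions and 0.430 to 0.999 with a median of 0.700 for the unmarked ones. Over all Runx3-bound regions the medians of this ratio were 0.209 with the mark and 0.412 without it, with ranges that overlapped widely.

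**Figure D2:**
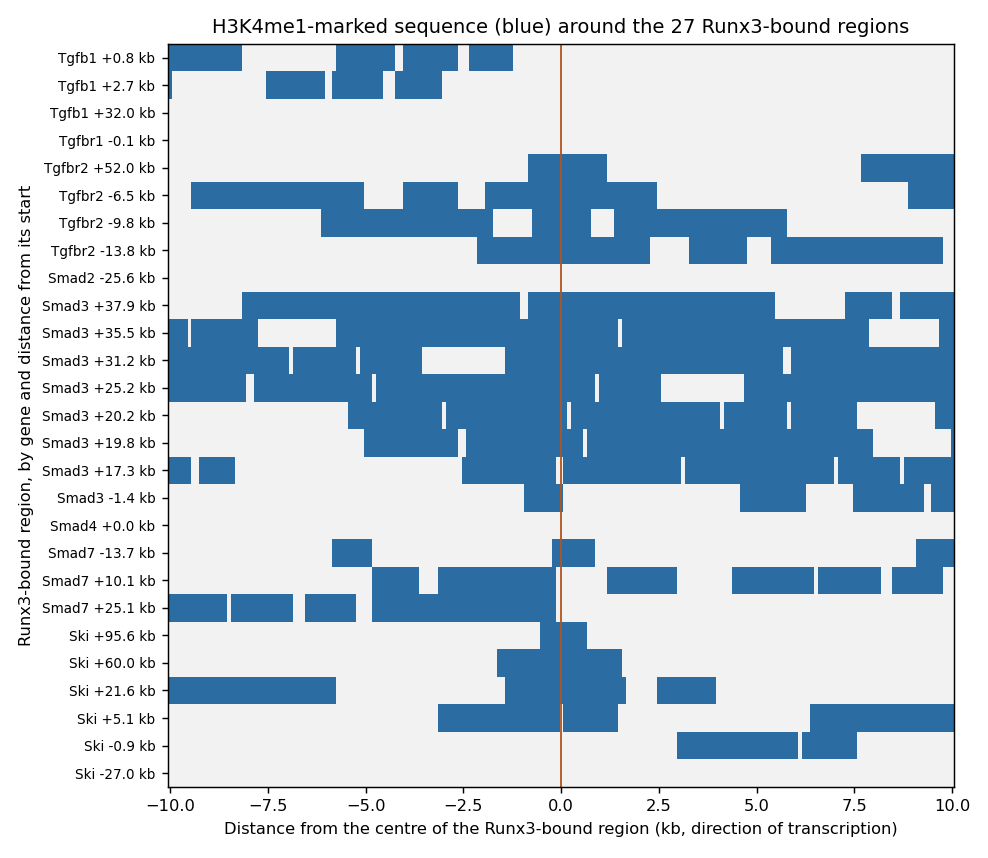
H3K4me1-marked sequence (blue) within 10 kb of the centre of each of the 27 Runx3-bound regions, 1 row per region, with distance from the centre in kb in the direction of transcription on the x axis and the gene and distance from its start on the y axis. The rows of Smad3 intron 1 are blue on both sides of the centre, with narrow gaps between called regions and wider unmarked stretches farther out, and the rows of Tgfbr1, Smad2 and Smad4 have no blue.

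In 4 regions the Runx3 call spanned the gap between neighbouring H3K4me1-marked regions, which was the case for 14.8% of the member regions (5.92 to 32.5) and 7.53% of all. At Smad3 the gaps were 138 bp under the region at 20.2 kb and 131 bp under the region at 17.3 kb. At Ski they were 19 bp under the region at 60.0 kb and 99 bp under the region at 5.13 kb. The marked regions on either side were 1397 to 3821 bp wide. The lists hold no read profile, so whether the signal dips in these gaps was not tested.

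H3K4me1-marked regions that held a Runx3-bound region were wider than those that did not, with a median of 2721 bp (951 to 7166, n = 20) against 1665 bp (914 to 4403, n = 37) at the member loci. Over all regions the medians were 1904 and 1496 bp. A wider region is met more often by any other list, and this was not corrected for. RUNX motifs per kb were 2.48 in the former and 2.19 in the latter as medians, against 2.28 and 1.97 over all regions, with ranges that overlapped almost entirely. The 27 Runx3-bound regions themselves ranged from 297 bp at Tgfbr2 to 1431 bp at Tgfb1 with a median of 569 bp, against 521 bp over all.

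A RUNX motif was found in 25 of the 27 Runx3-bound regions (92.6%, 76.6 to 97.9), against 92.6% of all Runx3-bound regions. The 2 regions without it were those at -6.46 kb of Tgfbr2 and 37.9 kb of Smad3. In the central 200 bp the motif was present in 23 (85.2%, 67.5 to 94.1), against 78.8%. Of the 70 motifs, 29 were of the form TGTGGT and 27 of the form TGTGGC. The CpG-containing forms TGCGGT and TGCGGC numbered 9 and 5. The form TGTGGT was present in 19 regions (70.4%, 51.5 to 84.1), against 69.6% of all, and either CpG-containing form in 9 regions (33.3%, 18.6 to 52.2), against 31.5%. The motif content of these loci was thus close to that of the whole list. At the member loci TGTGGT was in 15 of 19 marked and 4 of 8 unmarked regions, and a CpG-containing form in 4 of 19 and 5 of 8. The same split was not counted over all Runx3-bound regions, so nothing particular to these loci is read from it. The part of the CpG ratio given above in this split was not tested.

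**Figure D3:**
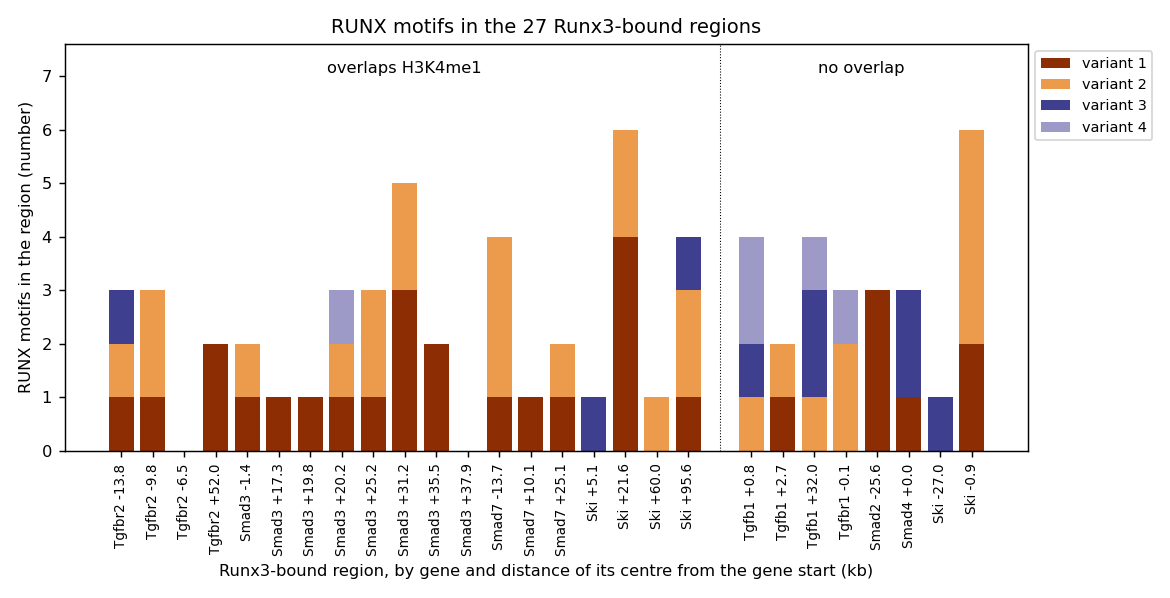
Number of RUNX motifs (y axis) in each of the 27 Runx3-bound regions, named by gene and distance from its start in kb (x axis), with regions that overlap H3K4me1 on the left. Colours are the 4 variants in the order TGTGGT then TGTGGC then TGCGGT then TGCGGC; the dark and pale blue of the last 2 appear in 4 of 19 marked and 5 of 8 unmarked regions.

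Closely spaced RUNX motifs occurred at several of the loci. A pair of RUNX motifs at a gap of at most 50 bp lay in the centre of 7 regions (25.9%, 13.2 to 44.7), against 25.7% of all. Pairs directly side by side were found in 3 regions (11.1%, 3.85 to 28.1), those at Smad2, at 25.2 kb of Smad3 and at the start of Ski, against 0.854% of all. This last measure was added after the pairs had been seen, so it is given as a value without weight.

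ETS motifs (AGGAAA or AGGAAG or CGGAAA or CGGAAG on either strand) were in 26 of 27 regions (96.3%, 81.7 to 99.3), against 88.9% of all. The central 200 bp held such a motif in 23 (85.2%, 67.5 to 94.1), against 66.2%. A RUNX and an ETS motif at most 50 bp apart stood in the centre of 16 (59.3%, 40.7 to 75.5), against 39.0%. The AP-1 motif was in 7 regions (25.9%, 13.2 to 44.7), against 13.5%, and in the centre of 5 (18.5%, 8.18 to 36.7), against 6.50%. The AP-1 regions were spread over 5 loci, with 2 at Tgfbr2, 2 at Smad3 and 1 each at Smad2, Smad7 and Ski. The 8-base SMAD box GTCTAGAC was in none of the 27 regions (0 to 12.5), against 0.591% of all, and its short form CAGAC was in 22 (81.5%, 63.3 to 91.8), against 73.5%. A match to these letters is not a bound site. Of the 20 shares of regions given here with an interval, the share over all regions lay below the interval for the central ETS motif, the RUNX and ETS pair, the central AP-1 motif, the side-by-side RUNX pair and the neighbour within 10 kb, the last of which depends on the selection of the loci and the pair on its having been seen. It lay inside the interval for the others, and none of these differences was tested. The intervals treat regions as independent, although Smad3 gave 8 of the 27 Runx3-bound regions and Ski 6. No allowance was made for looking at 20 shares, so a share outside its interval is not read as a difference.

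The other genes of the TGF-β superfamily pathway were taken from a list of 48. Of these, 18 (37.5%) had a Runx3-bound region by the same rule and 29 (60.4%) an H3K4me1-marked region, beside 39.6% and 44.6% of all protein-coding genes, and 17 had neither. The 48 loci held 28 Runx3-bound regions, 13 of them with H3K4me1. This number is not compared with the 27 of the 9 members, because the members were chosen by such regions. The remaining SMAD genes, Smad1, Smad5, Smad6 and Smad9, which serve the BMP branch or inhibit it, had 0 Runx3-bound regions and 3 H3K4me1-marked regions in all. Ligand genes had 1 of 8 with a Runx3-bound region, ligand storage and release genes 2 of 7, receptors 3 of 9, SMAD partners or regulators 10 of 17 and the SMAD-independent branch 2 of 3. Furin, the protease that cleaves the TGF-β precursor, and Tgfbr3, a co-receptor, each had 3. Crebbp, Map3k7, Pmepa1, Tgif1, Tgif2 and Trim33 each had 2. Of these regions, 2 each overlapped the gene bodies of Tgfbr3 and Tgif1, and 1 each those of Furin, Pmepa1 and Trim33. At Crebbp, Map3k7 and Tgif2, 0 overlapped the gene body, though 1 at Map3k7 lay less than 1 kb from its start. Regions outside a gene body cannot be assigned to these genes by position. Crebbp is an acetyltransferase and coactivator of SMADs, Map3k7 the kinase TAK1 of the SMAD-independent branch, Pmepa1 restrains receptor-regulated SMADs, Tgif1 and Tgif2 are SMAD corepressors and Trim33 binds or ubiquitinates SMADs.

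**Figure D4:**
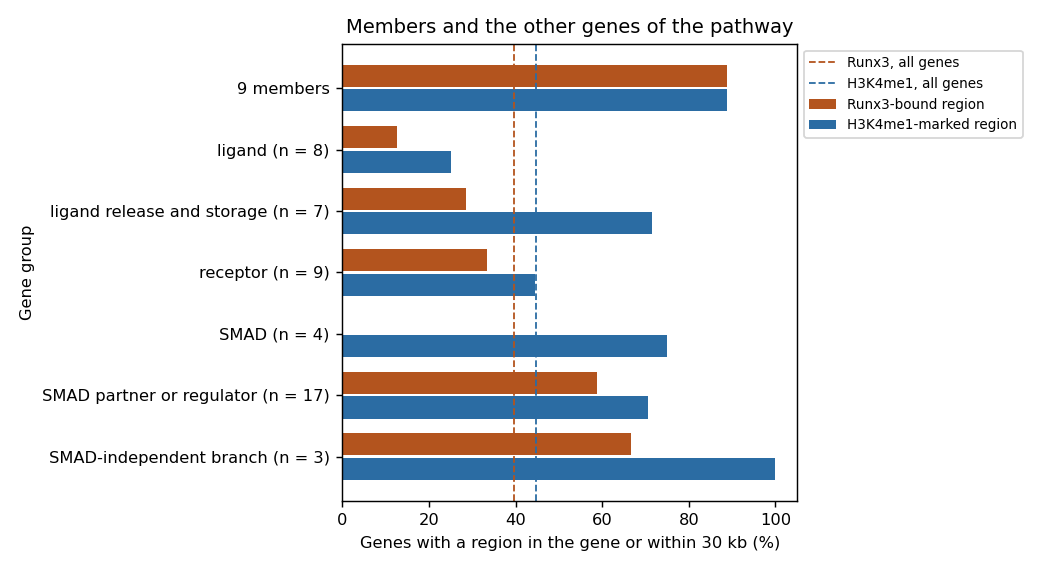
Percent of genes with a Runx3-bound region (orange) or an H3K4me1-marked region (blue) in the gene or within 30 kb (x axis), for the 9 members and 6 groups of the other pathway genes (y axis, n in brackets), with the shares of all protein-coding genes as dashed lines at 39.6% and 44.6%. The members stand at 88.9% by selection, and the 4 other SMAD genes are at 0 for Runx3.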

How the data were processed

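ChIP-seq reads of the 2 anti-Runx3 repeats and of anti-H3K4me1 had been aligned by the authors to mm9 with ELAND, joined and called with MACS against joined NIS reads. The labels give 1 H3K4me1 library but the protocol mentions repeats for both antibodies, so the number behind that list is not known. The 2 deposited lists give positions and names of peaks, with 0 columns of score, so joining hides the spread between repeats and read depth was not analysed here. Starts were converted to count from 1. Genes came from GENCODE vM1 and sequence from NCBIM37, which is mm9. A locus was the gene body with 30 kb on each side, overlap was at least 1 bp, and motifs were counted on both strands. No test was made, since the lists carry no replicates. Shares have 95% Wilson intervals beside the share over all regions or genes.

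The 9 genes and the lists of pathway and marker genes were chosen with earlier results of these data known. Named were all members, every Runx3-bound region of a locus (for loci with over 6, the widest, the nearest to the start and the richest in motifs, with others added after their values were seen), neighbours with the nearest start, and up to 10 other pathway genes with the most Runx3-bound regions. The scripts were tested on simulated data. Python 3.11.15, NumPy 2.4.6, SciPy 1.17.1 and matplotlib 3.10.9 were used. Alternatives varied the window, the overlap, the region width, the motif and the transcript starts.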

Additional observations from a re-analysis of the deposited data

How the results depend on the processing

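Of 47 alternative values over 7 results, 41 stayed within the limits set for no change and 6 moved. A share counted as unchanged inside the Wilson interval of the main value, and a count within a fixed ratio to the main count. These limits were wide, since 19 in place of 27 regions and 57.9% in place of 70.4% counted as unchanged. The number of Runx3-bound regions, 27 with 30 kb on each side, was 17 in the gene bodies alone and 44 with 100 kb. The 57 H3K4me1-marked regions became 87 with 100 kb and 33 when regions narrower than the median of their list were left out. With that width limit on both lists the share of Runx3-bound regions that overlapped H3K4me1 fell from 70.4% to 44.4% (8 of 18, 24.6 to 66.3). The limit also removed narrow H3K4me1-marked regions, which by itself lowers the overlap. The share over all Runx3-bound regions under this limit was not computed, so nothing is read from the fall. With TGTGGT as the RUNX motif alone, the share of regions with a motif was 70.4% in place of 92.6%. Leaving out the Smad3 or the Ski locus, alternatives chosen after seeing the data, gave 19 and 21 Runx3-bound regions and shares with H3K4me1 of 57.9% and 71.4%. With 50 kb on each side 9 of 9 loci had a Runx3-bound region. No paired analysis was possible because the reads of the repeats had been joined before the regions were called, and for the same reason no replicate could be left out. Without read depth, a locus without a call, such as Tgfbr1 for H3K4me1, cannot be taken as free of signal.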
